A study of Mus musculus with 4 samples.

Results

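Interferon-responding myogenic cells are barcodes that held transcripts of a muscle stem cell factor together with transcripts of several interferon-stimulated genes. A barcode was taken as such a cell where it had 1000 to 5000 genes, at most 8% of its unique molecular identifiers (UMIs, each a counted transcript) from mitochondrial genes, at least 1 UMI of *Pax7* or *Myf5*, and no UMI of *Ptprc* or *Cdh5*. In addition it had to hold at least 1 UMI in 3 or more of 7 interferon-stimulated genes, the rule genes *Ifit1*, *Ifit3*, *Ifit3b*, *Isg15*, *Iigp1*, *Usp18* and *Rsad2*. *Pax7* and *Myf5* are transcription factors of satellite cells, the stem cells of skeletal muscle, whereas *Ptprc* marks white blood cells and *Cdh5* endothelial cells. The rule found 311 cells among 27425 barcodes. Without the condition on the 7 rule genes it found 16771 cells, called myogenic cells here, and the 16460 of them outside the set serve as the comparison.

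The libraries came from hindlimb satellite cells sorted as ITGA7+/VCAM+/Lin-, where Lin- means negative for Cd11b, Sca1, Cd45 and Cd31, and the labels name no treatment. B10 (C57/Bl10ScsSn, 15 weeks) is the wild-type strain for *mdx* (C57BL/10ScSn-Dmdmdx, 11 weeks), and DBA (DBA/2, 13 weeks) is that for D2-*mdx* (D2.B10-Dmdmdx, 14 weeks), so that age varied with strain. The *mdx* allele disrupts *Dmd*, the dystrophin gene, in both dystrophic strains. Each strain is 1 library of cells pooled from 2 mice, and strain, age, mouse and library cannot be told apart. There is no replicate, so no test was run, and every interval given is an exact 95% interval that covers counting error only. The libraries held 49191944 UMIs in 9931 barcodes for B10, 67156373 in 7173 for *mdx*, 43542853 in 3539 for DBA and 75482888 in 6782 for D2-*mdx*.

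Type I interferons bind a receptor made of IFNAR1 and IFNAR2, and interferon gamma binds IFNGR1 and IFNGR2. The kinases JAK1, TYK2 and JAK2 then phosphorylate transcription factors. The complex ISGF3, which holds STAT2 and IRF9, binds the interferon-stimulated response element in the promoters of antiviral genes, while interferon gamma acts through another site and drives guanylate-binding proteins and immunity-related GTPases. Among the rule genes, *Ifit1*, *Ifit3* and *Ifit3b* encode proteins that bind foreign RNA, *Isg15* encodes a ubiquitin-like modifier, and *Usp18* encodes the protease that removes it and also dampens the type I receptor. *Rsad2* encodes viperin, an enzyme that makes a chain-terminating nucleotide, and *Iigp1* encodes an immunity-related GTPase that acts on the vacuoles of intracellular parasites.

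The response element was searched on both strands as the letters GAAA, any 2 bases (NN) and GAAA again, which read TTTC, 2 bases and TTTC where they lie on the other strand, in the 250 bases before each gene start of the RefSeq promoter table (GRCm38.p6). Among 27025 genes with a promoter in the table, 936 (3.463%) held a match. A match was present for 5 of the 5 rule genes that have an entry, *Ifit1*, *Ifit3*, *Ifit3b*, *Isg15* and *Rsad2*. The windows of 4 rule genes, of *Gbp3*, a guanylate-binding protein, and of *Bst2*, the membrane protein tetherin that holds budding virus, are shown because these genes carry the results below. Capitals mark the matches, and each sequence is written 5′ to 3′ on the strand of the gene.
Isg15: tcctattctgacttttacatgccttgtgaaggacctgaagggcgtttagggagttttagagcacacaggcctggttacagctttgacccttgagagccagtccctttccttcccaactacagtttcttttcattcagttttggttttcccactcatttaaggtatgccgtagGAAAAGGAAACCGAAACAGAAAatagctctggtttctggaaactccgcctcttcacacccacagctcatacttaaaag
Ifit1: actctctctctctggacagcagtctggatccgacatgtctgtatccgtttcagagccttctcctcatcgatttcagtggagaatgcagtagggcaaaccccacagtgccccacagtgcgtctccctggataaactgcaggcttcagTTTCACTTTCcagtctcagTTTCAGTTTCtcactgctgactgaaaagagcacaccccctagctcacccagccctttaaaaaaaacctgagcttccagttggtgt
Ifit3: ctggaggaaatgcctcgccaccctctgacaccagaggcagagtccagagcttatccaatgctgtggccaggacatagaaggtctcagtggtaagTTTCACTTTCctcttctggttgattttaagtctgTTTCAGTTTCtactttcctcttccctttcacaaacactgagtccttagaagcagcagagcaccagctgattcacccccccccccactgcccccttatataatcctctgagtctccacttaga
Rsad2: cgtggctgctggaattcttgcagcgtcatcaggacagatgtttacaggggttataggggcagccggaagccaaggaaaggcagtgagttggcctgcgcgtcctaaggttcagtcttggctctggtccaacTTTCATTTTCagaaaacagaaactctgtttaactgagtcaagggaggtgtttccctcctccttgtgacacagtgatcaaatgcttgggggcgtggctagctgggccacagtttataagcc
Gbp3: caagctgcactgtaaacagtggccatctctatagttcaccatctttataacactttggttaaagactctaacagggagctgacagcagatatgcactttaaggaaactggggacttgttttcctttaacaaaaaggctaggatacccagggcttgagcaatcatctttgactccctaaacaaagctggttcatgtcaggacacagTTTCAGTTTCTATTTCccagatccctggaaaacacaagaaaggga
Bst2: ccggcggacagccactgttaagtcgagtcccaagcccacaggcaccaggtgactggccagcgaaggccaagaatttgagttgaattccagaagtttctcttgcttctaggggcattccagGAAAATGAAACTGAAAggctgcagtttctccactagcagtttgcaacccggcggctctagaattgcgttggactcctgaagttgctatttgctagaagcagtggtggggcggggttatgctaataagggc

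These windows lie at chr4:156200819-156201068 (minus strand) for *Isg15*, chr19:34640639-34640888 (plus) for *Ifit1*, chr19:34583279-34583528 (plus) for *Ifit3*, chr12:26456453-26456702 (minus) for *Rsad2*, chr3:142559794-142560043 (plus) for *Gbp3* and chr8:71537473-71537722 (minus) for *Bst2*. The 3 matches of *Isg15* overlap and begin 78, 72 and 66 bases before the gene start. *Ifit1* held its matches at 104 and 85 bases, *Ifit3* at 156 and 122, *Gbp3* at 45 and 39, and *Bst2* at 130 and 124, while *Rsad2* held 1 match at 120 bases. In the gene lists used below, 16 of the 42 antiviral effectors with an entry held a match (38.1%), as did 9 of 10 guanylate-binding proteins and immunity-related GTPases (90%). Fewer were found for STAT and IRF factors (2 of 9), for MHC class I and its loading (3 of 17) and for chemokines and cytokines (1 of 8). Matches were found for 0 of 6 nucleic acid sensors, 0 of 3 ISG15 enzymes, 0 of 7 receptors and kinases and 0 of 9 satellite cell genes, and for 1 of 7 pericyte and 1 of 4 glial markers. A match is a run of letters and not a shown binding site, and its absence says only that these letters are not in the window. *Ifit3*, *Ifit3b* and *Ifit1* are neighbours on the plus strand of chromosome 19, at 34583531 to 34588731, 34607970 to 34613401 and 34640871 to 34650009 (GENCODE M21). As *Ifit3b* is a near copy of *Ifit3*, reads shared between them could be split or dropped in counting, and the separate values of these 2 genes are uncertain.

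The set did not hold satellite cells alone. To check the label, each cell was assigned to the marker list with the most UMIs among satellite cell genes outside the rule (14 genes such as *Chodl*, *Calcr* and *Cdh15*) and the lists of 5 other cell types. Satellite cell genes led in 119 of 124 cells in B10 (96.0%, interval 90.8 to 98.7) and 97 of 117 in *mdx* (82.9%, 74.8 to 89.2), and 4 of 17 in DBA (23.5%, 6.81 to 49.9) and 24 of 53 in D2-*mdx* (45.3%, 31.6 to 59.6). Among the other myogenic cells they led in 98.9%, 95.3%, 94.7% and 90.2%, in this order. Pericyte and smooth muscle markers such as *Rgs5* and *Acta2* led in 4 cells of the set in B10 and 19 in *mdx*, and 13 in DBA and 24 in D2-*mdx*. Glial and Schwann markers led in 4 cells, all in D2-*mdx*, and white blood cell markers in 1 cell each in B10, *mdx* and D2-*mdx*. Of the pericyte-led cells, 2 of 4, 8 of 19, 8 of 13 and 10 of 24 passed the rule on a single UMI of *Pax7* or *Myf5*. By these markers most cells of the set in DBA and in D2-*mdx* went against the label. The list of satellite cell genes includes *Notch3*, *Heyl* and *Des*, which pericytes also express.

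**Figure D1:**
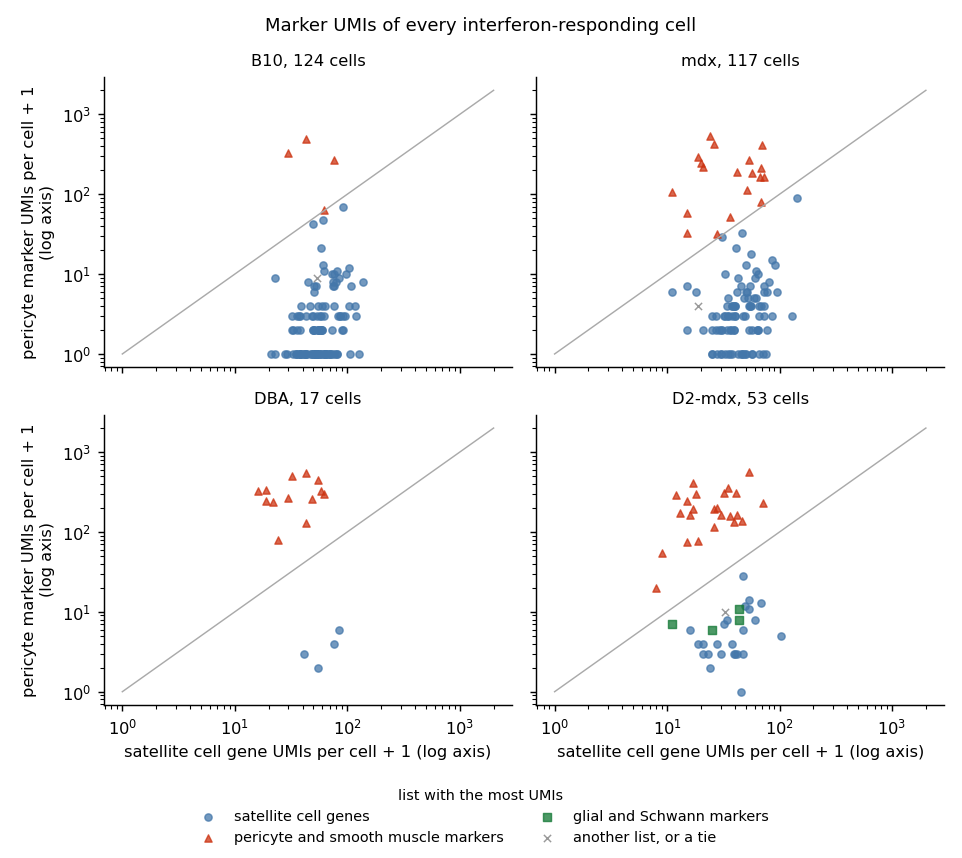
UMIs of satellite cell genes (x axis) and of pericyte and smooth muscle markers (y axis) in each of the 311 interferon-responding cells, plus 1 and on log axes, with 1 panel per library and symbols for the leading marker list. The 13 pericyte-led cells of DBA and the 24 of D2-*mdx* hold more pericyte than satellite cell UMIs, whereas 119 of the 124 cells of B10 are led by satellite cell genes.

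Values are therefore given for the whole set, with the comparison of all 16460 other myogenic cells, and for its 244 satellite-led cells against other satellite-led myogenic cells (15858 in both classes). Even among satellite-led cells, UMIs of the 8 glial and Schwann markers went with membership. At least 3 such UMIs were found in 2 of 119 satellite-led cells of the set in B10 (1.68%) and 16 of 97 in *mdx* (16.5%), and 1 of 4 in DBA and 2 of 24 in D2-*mdx* (8.33%), against 1.03%, 2.32%, 1.59% and 2.06% of the other satellite-led cells. Of these cells, 5 of the 16 in *mdx* and 1 of the 2 in D2-*mdx* were predicted doublets by Scrublet. Predicted doublets made up 0, 16, 1 and 10 cells of the whole set in B10, *mdx*, DBA and D2-*mdx*. These were 0%, 13.7%, 5.88% and 18.9% of the set, against 4.02%, 5.61%, 3.04% and 4.86% of the other myogenic cells. Cells of the set were about as deep as the others in B10, with a median of 8438.5 against 8500 UMIs, and deeper in *mdx* (9749 against 6960), DBA (13614 against 10349.5) and D2-*mdx* (9053 against 6498.5). Deeper cells have more chances to hold a UMI in 3 rule genes, and the part of depth, doublets and other cell types in the results was not tested beyond the alternatives given. Of the 311 barcodes, 1 was also a barcode of another library and 0 were members in both.

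Interferon-responding cells made up 2.68% of myogenic cells in B10 (interval 2.23 to 3.18) and 2.36% in *mdx* (1.95 to 2.82), and 0.591% in DBA (0.345 to 0.944) and 1.23% in D2-*mdx* (0.926 to 1.61). Both libraries on the B10 background thus lay above both on the DBA background, with intervals that did not overlap. Taking *mdx* over B10, the log2 ratio of the shares was -0.19 (-0.56 to 0.19), an interval that includes 0. This depended on the rule, as it was -0.28 (-0.54 to -0.03) with at least 2 rule genes, -0.49 (-0.90 to -0.08) with at most 5% mitochondrial UMIs and 0.35 (-0.18 to 0.88) with at least 4 rule genes. For D2-*mdx* over DBA it was 1.06 (0.25 to 1.94), with intervals that included 0 at 4 or more rule genes (0.86, -0.45 to 2.36) and after thinning each cell to 3000 UMIs (0.68, -0.96 to 2.56). Among satellite-led cells the shares were 2.60% in B10 and 2.06% in *mdx*, and 0.147% in DBA and 0.623% in D2-*mdx*, where the DBA value rests on 4 cells. Within this class *mdx* over B10 gave a log2 ratio of -0.34 (-0.74 to 0.06), while D2-*mdx* over DBA gave 2.08 (0.54 to 4.07). Without predicted doublets the ratio of *mdx* over B10 in this class was -0.45 (-0.86 to -0.04), and with under 3 glial UMIs it was -0.55 (-0.98 to -0.13). Satellite-led cells were also thinned to 3000 UMIs, with the rule applied to the thinned counts. The shares then fell to 0.949% in B10 and 0.992% in *mdx*, and 0.0771% in DBA and 0.117% in D2-*mdx*, from 42, 43, 2 and 4 cells. The log2 ratio of *mdx* over B10 was then 0.06 (-0.58 to 0.71), while D2-*mdx* over DBA gave 0.60 (-2.20 to 4.07), so that neither difference was detectable at this depth.

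**Figure D2:**
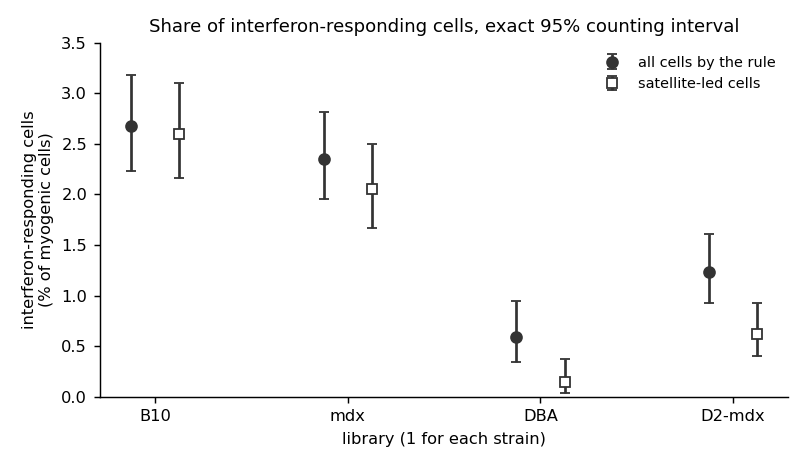
Share of interferon-responding cells among myogenic cells in percent (y axis) for each library (x axis), for all cells by the rule (filled circles) and for satellite-led cells (open squares), with exact 95% counting intervals. B10 (2.68%) and *mdx* (2.36%) lie above DBA (0.591%) and D2-*mdx* (1.23%), and the shares of the last 2 libraries are lower among satellite-led cells.

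Transcripts of 3 or more rule genes were more frequent in vascular cells of the same libraries than in satellite-led cells, apart from the 8 endothelial-led cells of DBA. Without the conditions on *Pax7*, *Myf5*, *Ptprc* and *Cdh5*, cells led by endothelial markers held them in 8 of 13 cells in B10 and 109 of 262 in *mdx* (41.6%), and 0 of 8 in DBA and 24 of 97 in D2-*mdx* (24.7%). Pericyte-led cells held them in 16%, 14.1%, 8.25% and 7.84% of cells, in the order B10, *mdx*, DBA and D2-*mdx*. Satellite-led cells held them in 2.64%, 2.12%, 0.182% and 0.684%. Thinned to 3000 UMIs, the shares were 20.2% of endothelial-led, 6.35% of pericyte-led and 1.03% of satellite-led cells in *mdx*. The satellite-led share was therefore below those of both vascular classes in *mdx* at equal depth, and free RNA from these classes was not measured apart from transcripts of the cell itself.

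Myogenic cells were spread over all numbers of rule genes, and whether the set is a class of its own was not tested. In satellite-led cells of B10, 3540 cells held no rule gene, 769 held 1, 149 held 2, 66 held 3 and 53 held 4 or more. Just outside the limit, at 2 rule genes, the antiviral effectors outside the rule summed to 2560 CPM (UMIs of a gene per 1000000 UMIs over the cells of a class) in B10 and 2759 in *mdx*, and 1774 in DBA and 2647 in D2-*mdx*. Just inside it, at 3 rule genes, they summed to 3317, 3230, 2144 (1 cell) and 4641 CPM. At 0 rule genes the sums were 1327, 1327, 1018 and 1431 CPM. The highest sums in B10 and *mdx* were those of cells with all 7 rule genes, 7661 CPM over 7 cells (6960 to 8414) and 10325 CPM over 11 cells (9769 to 10905). Median depth at 0 and at 7 rule genes was 8410.5 and 7130 UMIs in B10, and 6589 and 9749 UMIs in *mdx*. In all myogenic cells the pericyte sum was higher at 1 and 2 rule genes than at 0. It went from 513 CPM at 0 to 706 at 1 and 1574 at 2 in B10, and from 694 to 1712 and 3935 in *mdx*. In DBA it went from 967 to 3544 and 7718, and in D2-*mdx* from 1144 to 3680 and 6559. Above 2 rule genes it followed no order, at 8917 CPM with 6 and 105 with 7 in B10, and 4235 with 4 and 1466 with 7 in *mdx*. It was 20801 with 3, 292 with 4 (2 cells) and 18490 with 5 in DBA. In D2-*mdx* it was 11591 with 3, 9326 with 4, 346 with 5 (2 cells), 10724 with 6 (2 cells) and 535 with 7 (3 cells). In *mdx* alone, every value from 3 to 7 rule genes was above that at 0. Among satellite-led cells, where it is limited by construction, the sum also followed no order from 0 to 7 rule genes. It was 390 CPM with 0, 1133 with 6 (4 cells) and 105 with 7 in B10, and 404 CPM with 0, 657 with 4 and 233 with 7 in *mdx*.

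**Figure D3:**
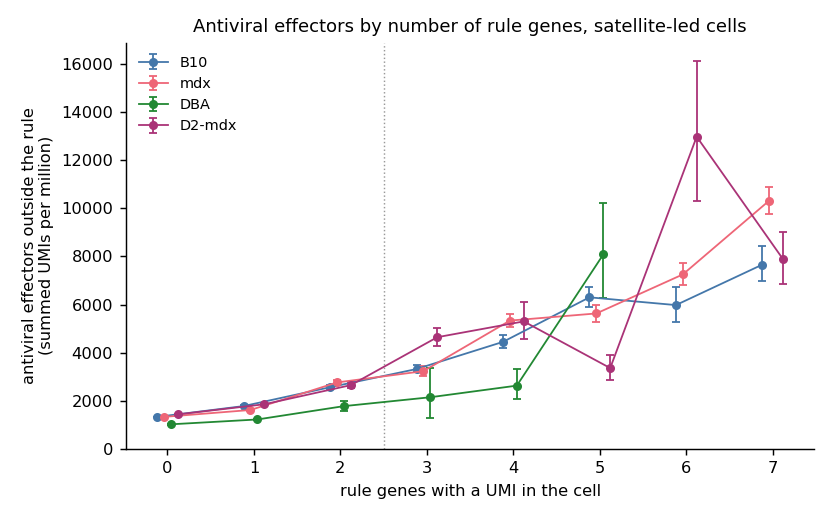
Summed CPM of the antiviral effectors outside the rule (y axis) in satellite-led myogenic cells by the number of the 7 rule genes with a UMI (x axis), 1 line per library, with exact 95% counting intervals. From 0 to 7 rule genes the sum goes from 1327 to 7661 CPM in B10 and from 1327 to 10325 CPM in *mdx*, and several D2-*mdx* and DBA points rest on 1 or 2 cells.

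The rule genes themselves selected the cells, so their levels are a description. Summed over all cells of the set they reached 1268 CPM in B10 and 1655 in *mdx*, and 1161 in DBA and 1112 in D2-*mdx*, against 37.3, 33.2, 17.3 and 28.0 CPM in the other myogenic cells. In satellite-led cells the level of *Isg15* was 390 CPM in B10 and 588 in *mdx*, and 470 in D2-*mdx* and 13 UMIs in the 4 DBA cells, and 10.7% of other satellite-led cells in B10, 7.10% in *mdx* and 6.4% in D2-*mdx* held an *Isg15* UMI. *Ifit1* stood at 308 CPM in B10, 328 in *mdx* and 250 in D2-*mdx*, against 5.50, 2.14 and 1.54 CPM in the other satellite-led cells. *Ifit3* stood at 250, 274 and 99.9 CPM, *Usp18* at 102, 118 and 91.5 CPM, and *Rsad2* at 47.4, 119 and 99.9 CPM.

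The rule genes were unevenly spread over the cells. An *Isg15* UMI was found in 86.6% of satellite-led cells of the set in B10, 92.8% in *mdx* and 91.7% in D2-*mdx*, and an *Ifit1* UMI in 71.4%, 74.2% and 87.5%. *Iigp1* was found in 33.6% of them in B10 (25.2 to 42.8), 68.0% in *mdx* (57.8 to 77.1) and 58.3% in D2-*mdx* (36.6 to 77.9). The number of rule gene UMIs in a cell ran from 3 to 67 in B10 with a median of 8, from 3 to 161 in *mdx* with a median of 10, and from 3 to 80 in D2-*mdx* with a median of 7. The 5 highest cells held 16.6%, 28.0% and 57.5% of these UMIs, so that the D2-*mdx* level rests largely on 5 cells.

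Antiviral effectors outside the rule were higher as a list. Over the whole set they summed to 4391 CPM in B10 and 5825 in *mdx*, and 6417 in DBA and 6230 in D2-*mdx*, and the log2 ratios to the other myogenic cells were 1.57 (1.53 to 1.61), 1.94 (1.91 to 1.98), 2.46 (2.38 to 2.53) and 1.84 (1.79 to 1.89). Of 51 genes of the list in the files, 33 reached 10 CPM on average over the 8 sums of the set and the other cells, and 27 of these were at least 2-fold higher in all 4 libraries, as 2.32% of all 8529 genes with this level were. That minimum counts the set itself, so 12 of the 33 entered only because they are high there and had to differ. With the minimum applied to the other cells alone, 16 of 21 antiviral genes were at least 2-fold higher in all 4 libraries and 0 were at least 2-fold lower in any, where 74 of 8168 genes were higher (0.906%). In single libraries, 3.56% of all genes were higher and 0.891% lower by this limit in B10, 4.48% and 0.95% in *mdx*, 15% and 10.2% in DBA, and 8.43% and 3.55% in D2-*mdx*. The same whole-set comparison carried a difference in the 10 pericyte and smooth muscle markers, which summed to 1320, 3300, 17673 and 9259 CPM in B10, *mdx*, DBA and D2-*mdx* against 589, 974, 1386 and 1672 CPM (log2 ratios 1.16, 1.76, 3.67 and 2.47). Of 7 with at least 10 CPM in the other cells, 4 were at least 2-fold higher in all 4 libraries, with *Acta2* the highest in B10, *mdx* and DBA and *Rgs5* in D2-*mdx*. Among satellite-led cells, from which cells with more pericyte than satellite cell UMIs are removed by construction, the log2 ratios of the pericyte sum were -0.11 (-0.25 to 0.04) in B10, 0.10 (-0.04 to 0.23) in *mdx* and -0.14 (-0.39 to 0.11) in D2-*mdx*.

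In satellite-led cells the antiviral sum had log2 ratios of 1.56 (1.52 to 1.60) in B10 and 1.98 (1.94 to 2.02) in *mdx*, with 1.77 (1.54 to 1.99) in DBA, while D2-*mdx* had 1.75 (1.66 to 1.83). These were about as large as over the whole set apart from DBA. Of 18 genes with at least 10 CPM in the other satellite-led cells, 15 were at least 2-fold higher in B10, *mdx* and D2-*mdx*, where 38 of 8075 genes were (0.471%). Over these 18 genes the median log2 ratio was 1.72 in B10, 2.11 in *mdx* and 2.08 in D2-*mdx*, against -0.01 in *mdx* and -0.02 in D2-*mdx* over all genes and 0.00 in B10. With the set counted in the minimum it was 25 of 29 genes, of which 11 entered through the set alone, and 95 of 8194 genes (1.16%). With satellite-led cells of under 3 glial UMIs only, 14 of 18 antiviral genes with at least 10 CPM in the other cells were at least 2-fold higher in these 3 libraries (0.422% of all genes, and 0.311% in all 4 libraries), or 22 of 27 with the set counted in the minimum (0.818% of all genes, and 0.607% in all 4), and the log2 ratios of the sum were 1.51, 2.0 and 1.75. Glial markers had summed to 109, 379 and 279 CPM in satellite-led cells of the set against 26.9, 76.5 and 66.1 CPM in the others, with log2 ratios of 2.03, 2.31 and 2.08. With under 3 glial UMIs, a limit that lowers this sum by construction, the ratios were 0.22 (-0.46 to 0.83), 0.29 (-0.35 to 0.86) and 0.56 (-0.65 to 1.55).

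*Ifitm3*, which encodes a membrane protein that blocks virus entry, stood at 1516 CPM in B10, 2104 in *mdx* and 2213 in D2-*mdx*, against 467, 492 and 566 CPM in the other satellite-led cells. It was no marker of the set, since 89.7%, 84.3% and 88.7% of other satellite-led cells held an *Ifitm3* UMI. *Oasl2*, an oligoadenylate synthetase-like protein, stood at 216, 248 and 150 CPM against 17.6, 10.3 and 5.15 CPM. *Rtp4*, a receptor transporter protein induced by interferon, stood at 101, 160 and 116 CPM against 6.51, 5.42 and 3.44 CPM, and held 5 UMIs in the 4 DBA cells. *Bst2* stood at 155, 437 and 179 CPM against 30.4, 37.8 and 21.4 CPM. *Slfn8*, a Schlafen family gene, stood at 47.4, 44.2 and 70.7 CPM against 3.20, 2.09 and 2.07 CPM. *Rtp4* and *Slfn8* were below 10 CPM in the other satellite-led cells. They reached that level only through the set and had to differ. *Eif2ak2*, the kinase PKR that senses double-stranded RNA, had log2 ratios of 2.10 (1.77 to 2.42), 2.77 (2.48 to 3.05) and 2.11 (1.32 to 2.81). *Ifitm2*, next to *Ifitm3* in the genome, had log2 ratios of only 0.07 (-0.08 to 0.22), 0.35 (0.22 to 0.49) and 0.44 (0.19 to 0.67), and *Ifi27* of 0.40, 0.53 and 0.33.

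**Figure D4:**
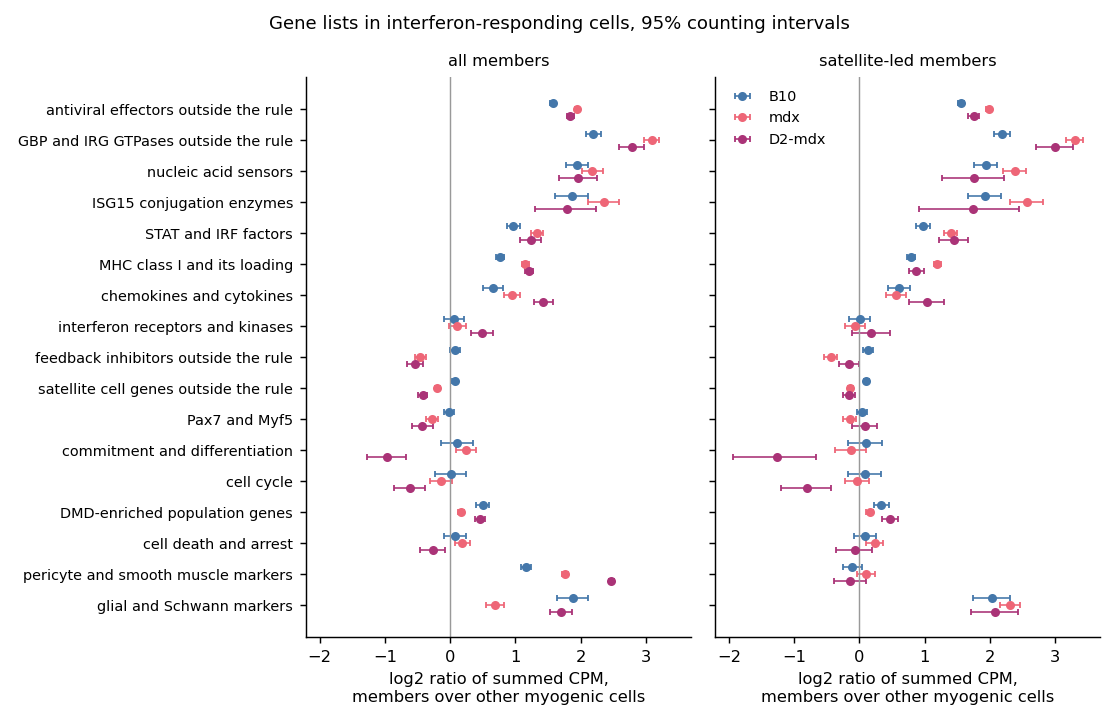
Log2 ratio of summed CPM of each gene list (x axis), interferon-responding over other myogenic cells, for all cells of the set (left) and satellite-led cells (right), with 95% counting intervals and 1 colour per library (DBA is left out, with 4 satellite-led cells). Antiviral effectors, GTPases, sensors, ISG15 enzymes and glial markers lie right of 0 in both panels. Pericyte markers lie right of 0 in the left panel, whereas their intervals include 0 in the right panel.

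The guanylate-binding proteins and immunity-related GTPases, which attack the vacuoles of intracellular microbes, had summed log2 ratios of 2.18 (2.06 to 2.31) in B10, 3.29 (3.17 to 3.42) in *mdx* and 2.99 (2.70 to 3.27) in D2-*mdx* in satellite-led cells, above those of the antiviral sum. Of the 16 genes of the list in the files, 3 reached 10 CPM in the other satellite-led cells, and these 3 were at least 2-fold higher in the 3 libraries (0.471% of all genes). A further 4, *Gbp3* among others, reached this level only through the set. *Gbp6* has 2 entries in the files, of which the list holds the first, and the other, left out of these sums, also reached it only through the set. *Gbp7* stood at 169 CPM in B10, 232 in *mdx* and 146 in D2-*mdx*, against 36.5, 26.2 and 21.2 CPM in the other satellite-led cells. *Gbp3* stood at 69.3, 97.3 and 49.9 CPM against 9.26, 6.87 and 2.92 CPM. *Igtp*, also called Irgm3, had log2 ratios of 3.01 (2.64 to 3.37), 3.82 (3.38 to 4.25) and 3.79 (2.74 to 4.69). Genes of both families have close copies, and reads that fit several copies could be lost from each.

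The enzymes that attach ISG15 to proteins showed smaller ratios than the GTPase sum in satellite-led cells of B10, *mdx* and D2-*mdx*. Both genes with at least 10 CPM in the other cells were at least 2-fold higher in satellite-led cells of all 4 libraries, as 0.396% of all genes were (0.952% with the set counted in the minimum). Over the whole set only 1 of the 2 was (0.906% of all genes), and likewise 1 with under 3 glial UMIs (0.311%). In both of these settings the 2 genes were higher in B10, *mdx* and D2-*mdx*. In all satellite-led cells *Ube2l6*, the E2 enzyme, had log2 ratios of 1.72, 1.80, 1.13 and 1.74, and the ligase *Herc6* had 2.09, 3.06, 2.14 and 1.68 in B10, *mdx*, DBA and D2-*mdx*. The DBA values rest on 1 UMI of *Ube2l6* and 3 UMIs of *Herc6*. Among sensors of foreign nucleic acid, *Ddx58* (RIG-I) stood at 107 CPM in B10, 111 in *mdx* and 45.8 in D2-*mdx* against 20.8, 14.4 and 12.1 CPM, and *Zbp1*, a Z-nucleic acid sensor, at 61.1, 59.0 and 54.1 CPM against 6.24, 3.94 and 3.35 CPM. *Ifih1* (MDA5) had log2 ratios of 1.75 (1.38 to 2.10), 2.33 (2.00 to 2.64) and 1.28 (-0.36 to 2.52), the last from 5 UMIs. *Mavs*, the adaptor of both RNA sensors, had -0.89 (-2.21 to 0.17), 0.40 (-0.62 to 1.26) and -1.10 (-6.40 to 1.40). Of the 11 sensors in the files, 2 reached 10 CPM in the other satellite-led cells, and both were at least 2-fold higher in B10, *mdx* and D2-*mdx*, against 0.471% of all genes, while *Zbp1* reached this level only through the set.

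Within the signalling pathway, 6 STAT and IRF genes had at least 10 CPM in the other satellite-led cells. Of these, 2 were at least 2-fold higher in B10, *mdx* and D2-*mdx* (0.471% of all genes). The median log2 ratios over the 6 were 0.26, 0.51 and 0.62. A further 2, *Irf7* among them, reached this level only through the set and had to differ. *Stat2*, *Irf9* and *Irf7* were each higher in the 3 libraries, with values given in the order B10, *mdx* and D2-*mdx*. *Stat2* and *Irf9*, which encode parts of ISGF3, had log2 ratios of 2.56, 2.89 and 3.21, and of 1.72, 2.29 and 3.0. *Irf7*, the factor that amplifies type I interferon, stood at 60.2, 146 and 95.7 CPM against 5.37, 5.34 and 4.26 CPM, and was found in 35.3% (26.8 to 44.6) of satellite-led cells in B10, 62.9% (52.5 to 72.5) in *mdx* and 50% (29.1 to 70.9) in D2-*mdx*. *Stat3*, which carries other cytokine signals, had log2 ratios of -0.20 (-0.55 to 0.13), 0.10 (-0.23 to 0.41) and 0.10 (-0.69 to 0.78), and *Irf3*, which is activated by sensors, 0.25 (-0.15 to 0.62), -0.04 (-0.51 to 0.40) and 0.46 (-0.55 to 1.30).

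Of the 7 genes for receptors and their kinases that reached 10 CPM, 0 were at least 2-fold higher in all 3 libraries, as 0.471% of all genes were, and 0 were lower in all 3, as 0.0122% of all genes were with the set counted in the minimum. The log2 ratios of their sum were 0.00 (-0.16 to 0.16) in B10, -0.07 (-0.22 to 0.09) in *mdx* and 0.18 (-0.12 to 0.46) in D2-*mdx*. *Ifnar2* had log2 ratios of 0.12 (-0.31 to 0.53), 0.20 (-0.26 to 0.63) and 0.22 (-0.78 to 1.07), and *Jak1* of -0.02 (-0.29 to 0.24), -0.05 (-0.32 to 0.20) and -0.17 (-0.80 to 0.39). The feedback inhibitor *Socs1* was at least 2-fold higher in B10, at 54.7 against 26.6 CPM, with log2 ratios of 1.04 (0.64 to 1.42) in B10, -0.15 (-0.87 to 0.48) in *mdx* and 0.65 (-0.81 to 1.78) in D2-*mdx*. *Socs3*, which restrains STAT3, had 0.11 (0.03 to 0.19), -0.46 (-0.56 to -0.37) and -0.20 (-0.36 to -0.04).

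Transcripts of the interferons themselves were not detected in the set. Over 21 ligand genes, the 311 cells held 0 UMIs of 3240830. All barcodes together held 6 UMIs of these genes in B10 and 21 in *mdx*, and 25 in DBA and 45 in D2-*mdx*. *Ifnb1*, the beta interferon gene, held 3 in *mdx* and 6 in D2-*mdx*, *Ifng* held 12 in *mdx* and 7 in D2-*mdx*, and *Ifnk*, interferon kappa, held 25 in DBA and 31 in D2-*mdx*. In B10, where the share of interferon-responding cells was highest, 5 of the 6 UMIs were of *Ifnz* and 1 of *Ifna2*. Ligand transcripts at this level are near the limit of detection, and cells removed by the sort were not measured.

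Genes of MHC class I and its peptide loading were higher by a smaller ratio, with summed log2 ratios in satellite-led cells of 0.79 (0.73 to 0.85) in B10, 1.20 (1.13 to 1.25) in *mdx* and 0.87 (0.75 to 0.99) in D2-*mdx*. Of 16 genes with at least 10 CPM in the other cells, 4 were at least 2-fold higher in the 3 libraries (0.471% of all genes), a count that was also 4 with satellite-led cells of under 3 glial UMIs (0.422% of all genes). The light chain gene *B2m* stood at 385 CPM in B10, 513 in *mdx* and 508 in D2-*mdx* against 181, 206 and 230 CPM. *Tap1*, the peptide transporter, had log2 ratios of 1.60 (1.13 to 2.03), 2.99 (2.64 to 3.34) and 2.90 (2.10 to 3.6), and *Psmb8*, a subunit of the immunoproteasome, 1.47, 2.44 and 1.18. *H2-D1* stood at 350, 571 and 741 CPM against 238, 255 and 460 CPM. Class I genes are polymorphic between strains and close to each other in sequence, and counts against the mm10 reference may differ with the strain for this reason, which was not tested.

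Among chemokines and cytokines, of 2 genes that reached 10 CPM in the other cells, 0 were at least 2-fold higher in the 3 libraries (0.471% of all genes), while *Cxcl10* reached this level only through the set, and its transcripts came from few cells. *Cxcl10*, a T cell attractant, had log2 ratios of 1.77, 4.04 and 7.04 in B10, *mdx* and D2-*mdx*, but its UMIs were in 5 of 119, 8 of 97 and 1 of 24 satellite-led cells. A single cell held 44.2% of its UMIs in B10, 48.8% in *mdx* and all 59 in D2-*mdx*. *Cxcl9*, which is known as a target of interferon gamma, held 0 UMIs in B10, 30 UMIs in 3 cells in *mdx* and 6 UMIs in 1 cell in D2-*mdx*. *Cxcl1*, a neutrophil attractant, was more widely spread, with a UMI in 33 of 119, 26 of 97 and 9 of 24 cells, and had log2 ratios of 0.40 (0.16 to 0.63), -0.44 (-0.70 to -0.18) and -0.16 (-0.67 to 0.31). *Cxcl12* was found in 36, 17 and 5 of these cells. *Ifi27l2a*, which is abundant in white blood cells, held 62 UMIs in 2 cells in B10, with 74.2% of them in 1 cell, against 168 UMIs in 21 cells in *mdx*.

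The levels of satellite cell genes are a description, since these genes chose the satellite-led class on both sides and *Pax7* and *Myf5* are part of the rule. In satellite-led cells of the set, 0 of 14 satellite cell genes outside the rule were at least 2-fold higher or lower in B10, *mdx* or D2-*mdx*. Of all 8194 genes tested there, 1.95% were higher and 1.06% lower in B10, 2.49% and 1.32% in *mdx*, and 5.33% and 6.86% in D2-*mdx*. *Pax7* stood at 958 CPM in B10, 428 in *mdx* and 508 in D2-*mdx* against 912, 465 and 488 CPM, and *Myf5* at 467, 401 and 395 CPM against 475, 456 and 366 CPM. *Chodl*, a lectin-like gene of quiescent satellite cells, had log2 ratios of 0.23 (0.16 to 0.29), -0.02 (-0.10 to 0.06) and -0.19 (-0.40 to 0.01), and *Calcr*, the calcitonin receptor that holds satellite cells in quiescence, -0.05 (-0.35 to 0.24), -0.34 (-0.78 to 0.07) and 0.38 (-0.49 to 1.13). *Dmd* stood at 323 CPM in the satellite-led cells of B10, 139 in *mdx* and 112 in D2-*mdx* against 326, 133 and 108 CPM in the others. In DBA it stood at 335 CPM, from 15 UMIs in 4 cells, against 292 CPM in the others. Each dystrophic library was thus below its wild-type strain on both sides.

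Summed over each list, markers of commitment and of the cell cycle were at similar levels in the set and the others in B10 and *mdx*. In D2-*mdx* the sums were lower in the set. The shares of cells given below did not all follow these sums. The commitment list had summed log2 ratios of 0.09 (-0.17 to 0.35) in B10, -0.13 (-0.37 to 0.10) in *mdx* and -1.27 (-1.94 to -0.67) in D2-*mdx*, and the cell cycle list 0.08 (-0.17 to 0.33), -0.03 (-0.23 to 0.15) and -0.81 (-1.21 to -0.44). The D2-*mdx* values come from 24 cells, in which *Myod1*, the factor of activated myoblasts, held 19 UMIs and *Myog*, the factor of differentiation, 1. In cells thinned to 3000 UMIs, *Myod1* was found in 29.7% (21.6 to 38.8) of satellite-led cells of the set in B10 against 20.3% of the others, in 15.5% (8.92 to 24.2) against 18.0% in *mdx*, and in 16.7% (4.74 to 37.4) against 19.9% in D2-*mdx*. At least 3 cell cycle genes were found in 0.847%, 3.09% and 0% of the thinned cells of the set, against 0.452%, 2.49% and 5.23% of the others, where 0 of 24 cells allows a share of up to 12.5% by the limit of 3 counts (3 of 24 cells). Unthinned, these shares were 5.88%, 9.28% and 16.7% against 4.93%, 9.52% and 12.0%. The list of arrest and death genes, which includes *Cdkn1a*, had summed log2 ratios of 0.09 (-0.08 to 0.26), 0.23 (0.11 to 0.36) and -0.07 (-0.35 to 0.20).

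One list held genes of the populations that the study described as enriched in dystrophic muscle, and as it was chosen on these libraries it is no independent evidence of a direction. Of its 9 genes that reached 10 CPM, 0 were at least 2-fold higher in B10, *mdx* and D2-*mdx* together, a count that says little beside the 0.471% of all genes that were. *Postn*, a matrix protein of that list, stood at 293 CPM in the satellite-led set of *mdx* against 141 CPM (log2 ratio 1.06, 0.88 to 1.23) and at 129 against 64.8 CPM in D2-*mdx* (0.99, 0.43 to 1.5). In thinned cells of *mdx* a *Postn* UMI was found in 27.8% (19.2 to 37.9) of the set and 13.4% (12.4 to 14.4) of the others. In B10, 31 UMIs of *Postn* were in 2 cells. *Cdkn1c*, a cell cycle inhibitor, was found in 30.9% (21.9 to 41.1) of the thinned set in *mdx* and 29.4% of the others, and in 5.93% against 5.50% in B10. The study took the gene lists of its scores from published work and gene ontology terms. A longer list for immunomyoblasts came from the study, and whether it was chosen on these libraries was not established here. It had 1 of 23 genes with at least 10 CPM in the other cells at least 2-fold higher in the 3 libraries (0.471% of all genes), *B2m*, and summed log2 ratios of -0.05, 0.19 and 0.35. That list does not hold *Ifit1*, *Ifit3* and *Isg15*, which the study also names for this population and which are rule genes here. Immediate-early and heat shock genes, which are induced by dissociation, had summed log2 ratios of 0.12 in B10, -0.39 in *mdx* and -0.36 in D2-*mdx*.

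These rankings describe the genes that reached 10 CPM with the set counted in the minimum, which favours genes that are high in the set. Ranked by the lowest of the 4 log2 ratios over the whole set, the 25 leading genes outside the rule were led by *Phf11d*, *Gm4951*, *Rtp4*, *Slfn8*, *F830016B08Rik*, *Ifi203*, *Oasl2*, *Ifi47*, *Irf7* and *Ifi27l2a*. The same 25 included *Higd1b*, *Ebf2*, *Kcnk3* and *Ednra*, genes known from pericytes and smooth muscle. Ranked in the same way in satellite-led cells, *Rtp4* (3.96, 4.89, 7.19 and 5.08 in B10, *mdx*, DBA and D2-*mdx*), *Slfn8* (3.89, 4.41, 5.73 and 5.10), *Oasl2* (3.62, 4.59, 5.02 and 4.86) and *Irf7* (3.49, 4.77, 3.56 and 4.49) led. The DBA values rest on 4 cells, with 1 UMI of *Irf7*. Of the 25, *Cdh19*, *Gpr37l1* and Rxrg are known from Schwann and glial cells, and none of these 3 was among the 25 with cells of under 3 glial UMIs. The 10 genes with the lowest ratios over the whole set opened with *Hba-a1*, a haemoglobin gene, and *Acta1*, skeletal muscle actin, but 0 of 8529 genes were at least 2-fold lower in all 4 libraries (0%). Among satellite-led comparison cells, transcripts of the red blood cell list, which holds the haemoglobin genes, came from few barcodes, as 5 cells held 95% of them in *mdx* and 95.5% in DBA, and 91.4% in D2-*mdx*.

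The levels of interferon genes were then compared between the satellite-led cells of *mdx* and B10. The sum of the rule genes, which selected the cells, was 1796 against 1250 CPM (log2 ratio 0.52, 0.42 to 0.62). That of the antiviral effectors was 5554 against 4284 CPM (0.37, 0.32 to 0.43), where the other satellite-led cells had -0.05 (-0.06 to -0.03). The GTPase list had 0.18 (0.02 to 0.35) in the set and -0.93 (-1.0 to -0.86) in the others, and the MHC class I list 0.17 (0.09 to 0.26) and -0.23 (-0.25 to -0.21). The feedback inhibitors went the other way, with -0.53 (-0.65 to -0.41) in the set and 0.04 (0.02 to 0.05) in the others, but nearly all of this sum is *Socs3*, at 844 against 1202 CPM in the set (-0.51, -0.64 to -0.39). Chemokines and cytokines had 0.28 (0.05 to 0.51) in the set and 0.33 (0.28 to 0.37) in the others. The lists of ISG15 enzymes, sensors, receptors and kinases, and STAT and IRF factors had 0.22, 0.19, 0.18 and 0.07 in the set, with intervals that included 0, and -0.43, -0.26, 0.25 and -0.35 in the others. The differences between the ratios of the set and of the other cells were not tested. With under 3 glial UMIs the ratios in the set were 0.67 (0.56 to 0.78) for the rule genes, 0.43 (0.37 to 0.49) for the antiviral effectors, -0.02 (-0.12 to 0.07) for the MHC class I list and -0.51 (-0.64 to -0.39) for the feedback inhibitors. They were then 0.29 (0.11 to 0.46) for the GTPases, 0.29 (0.05 to 0.54) for the sensors and 0.17 (0.02 to 0.32) for the STAT and IRF factors, all above 0, whereas the intervals of the chemokines and cytokines (0.21, -0.04 to 0.45), the ISG15 enzymes (0.21, -0.15 to 0.57) and the receptors and kinases (0.16, -0.08 to 0.40) included 0.

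Of 89 interferon genes with at least 20 UMIs in the set of either library, the highest in *mdx* over B10 were *Ifi204*, *Ifi44*, *Cxcl9*, *Phf11d* and *Iigp1*. *Ifi204*, a DNA-binding protein of the PYHIN family, held 49 UMIs in 19 cells in *mdx* and 0 UMIs in B10, a level at least 4.14 higher on the log2 scale against a floor of 3 UMIs over the group. The other satellite-led cells showed a log2 ratio of 5.71 (4.47 to 7.34) for *Ifi204*, so that this difference was not particular to the set. *Ifi44*, a cytoplasmic antiviral protein, stood at 40.3 against 2.74 CPM (3.88, 2.23 to 6.22), from 15 of 97 and 2 of 119 cells, and had 0.58 (-1.29 to 2.58) in the others. *Iigp1*, a rule gene, stood at 260 against 81.2 CPM (1.68, 1.33 to 2.04), and at 5.81 against 2.08 CPM in the others (1.48, 1.11 to 1.86), which the rule also selected, so that nothing particular to the set is shown for it. *Bst2* had 1.49 (1.24 to 1.76) in the set and 0.31 (0.20 to 0.42) in the others, and *Irf7* had 1.27 (0.85 to 1.71) and -0.01 (-0.29 to 0.27). *Bst2* and *Irf7* were picked here after their values were seen.

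The lowest in *mdx* over B10 were *H2-Q4*, *Socs1*, *Cxcl12*, *Lgals9* and *Irgm1*. *H2-Q4*, a class I gene, stood at 65.9 against 198 CPM (-1.59, -2.0 to -1.19), with -1.76 (-1.85 to -1.68) in the others, and *Irgm1*, a regulatory GTPase, at 50.1 against 104 CPM (-1.05, -1.56 to -0.56), with -2.07 (-2.24 to -1.90) in the others. *Lgals9*, a galectin, had -1.19 (-1.69 to -0.70) and -1.70 (-1.86 to -1.54). These 3 genes were thus lower in *mdx* on both sides. *Socs1* stood at 19.7 against 54.7 CPM (-1.48, -2.28 to -0.73), and at -0.28 (-0.41 to -0.15) in the others. *Cxcl12*, a chemokine of stromal cells, had -1.31 (-2.10 to -0.56) and -1.01 (-1.14 to -0.88).

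**Figure D5:**
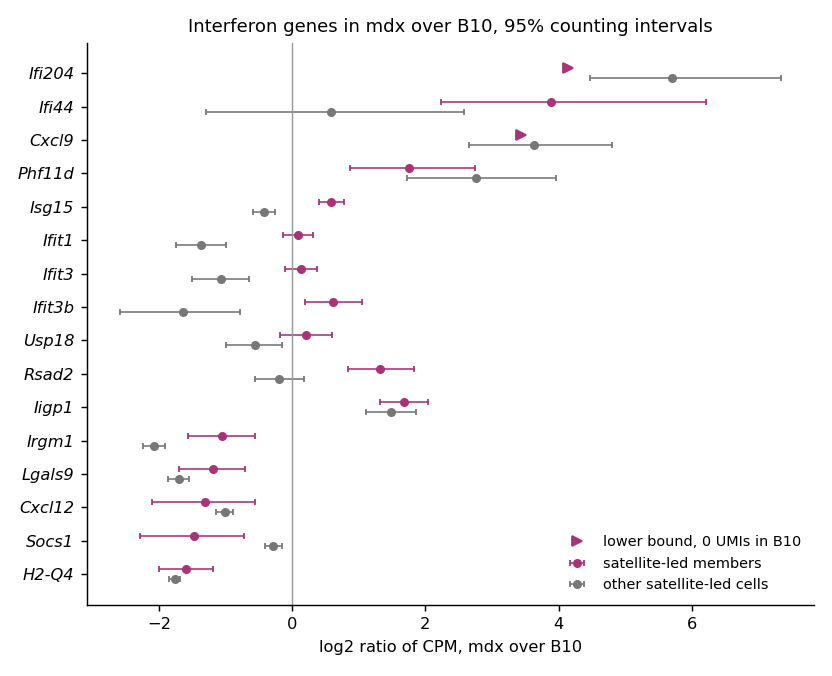
Log2 ratio of CPM in *mdx* over B10 (x axis) for the 7 rule genes and the 5 highest and 5 lowest interferon genes of this comparison, in satellite-led interferon-responding cells and in other satellite-led cells, with 95% counting intervals and triangles for lower bounds. *H2-Q4* lies at -1.59 in the set and -1.76 in the others, and *Socs1* at -1.48 and -0.28. The rule genes chose which cells are in the set and which are in the others, so their points are a description.

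The comparison of D2-*mdx* with DBA rests on 24 and 4 satellite-led cells and allowed few statements. The rule genes summed to 1252 and 1205 CPM (log2 ratio 0.06, -0.37 to 0.50), a ratio of 0.59 (0.02 to 1.22) with under 3 glial UMIs, which leaves out 1 of the 4 DBA cells, with 41 glial UMIs, and 2 of the 24 D2-*mdx* cells. The antiviral effectors summed to 5059 and 3571 CPM (0.50, 0.26 to 0.75, and 0.36, 0.09 to 0.64, with under 3 glial UMIs), where the other satellite-led cells had 0.53 (0.50 to 0.55). The MHC class I list had -0.65 (-0.90 to -0.40) in the set and 0.27 (0.25 to 0.29) in the others, and the feedback inhibitors, again mostly *Socs3*, 0.97 (0.45 to 1.54) and 0.59 (0.57 to 0.61). Of 32 genes with at least 20 UMIs in either library, *Ifit3* was the lowest, at 99.9 against 469 CPM (-2.23, -3.14 to -1.31), from 24 and 21 UMIs, and 15 of the 21 DBA UMIs were in that 1 DBA cell. With under 3 glial UMIs in both libraries the ratio of *Ifit3* was -1.03 (-2.40 to 0.58), from 20 and 6 UMIs, and *Bst2* was the lowest at -1.53 (-2.47 to -0.51). The next lowest with all cells were *Psme1* (-1.22, -2.20 to -0.15), *Gbp7* (-1.10, -2.03 to -0.09), *H2-D1* and *Tor3a* (-0.84, -2.13 to 0.64). *H2-D1* stood at 741 against 1428 CPM (-0.95, -1.37 to -0.51). The 5 highest were *Ifngr1* (2.38, -0.21 to 7.74), *Rsad2* (2.16, -0.45 to 7.52) and *Irf7* (2.10, -0.52 to 7.46), each against 1 DBA UMI and with an interval that includes 0, then *Cxcl10*, at least 1.87 higher on the log2 scale from 59 UMIs in 1 cell against 0, and *Iigp1* (1.66, 0.04 to 3.99). With under 3 glial UMIs the highest was *Ifitm2* (1.93, 0.68 to 3.58), and *Iigp1* (1.32, -0.31 to 3.65) and *Cxcl10* were no longer among the 5.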

How the data were processed

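Values were UMI counts per gene and barcode, deposited by the authors as 1 filtered 10X matrix per library, which were made with Cell Ranger 3.0.1 against mm10. No normalisation had been applied. Members and gene lists were chosen with earlier results of these data known. Counts were summed over the cells of a class and library and divided by their total (CPM). Genes were compared where the mean over the 8 sums (set and other cells of 4 libraries) was at least 10 CPM, and called at a fold of 2. Lists were counted over genes with at least 10 CPM in the other cells alone, a minimum added after seeing the data. Intervals were exact: Clopper-Pearson for shares, Poisson for CPM, and binomial for ratios. A group at 0 was set against a floor of 3 counts over the group. The genes named were the 7 rule genes, Dmd, the fixed lists, the 25 genes with the largest lowest log2 ratio over the 4 libraries, the 10 with the most negative highest ratio, and, between libraries, the 5 highest and 5 lowest interferon genes with at least 20 UMIs in the set of a library. Of 349 list genes, 5 were not found under these symbols. Doublets were called with Scrublet (scanpy 1.11.5) as the top scores up to an expected 0.8% per 1000 cells, and were kept. Thinning drew 3000 UMIs per cell without replacement, and 38 myogenic cells of B10 below that depth were left out. Alternatives used TMM (edgeR 4.0.16) and DESeq2 1.42.0 size factors on the counts, and no model was fitted. The satellite-led class was planned as an alternative, whereas those on glial UMIs, on doublets or thinning within that class, and the ranking without DBA were chosen after seeing the data. The calculations (Python 3.11.15, numpy 2.4.6, scipy 1.17.1) were tested on simulated data. Near copies (Ifit3 and Ifit3b, H2 genes, GBP and IRG genes) may share reads. The values of a few genes are not reported here.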

Additional observations from a re-analysis of the deposited data

How the results depend on the processing

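With at least 2 rule genes, the shares were 6.02% in B10 and 4.95% in *mdx*, and 1.53% in DBA and 3.63% in D2-*mdx*, and the log2 ratios of the antiviral sum 1.29, 1.66, 1.89 and 1.49. The median log2 ratio of red blood cell genes in *mdx* then turned to 3.80 and that of mature myofibre genes in DBA to -0.063. With at least 4 rule genes, the shares were 1.19%, 1.51%, 0.243% and 0.442%, the log2 ratio of the share in *mdx* over B10 was 0.35, and the antiviral ratios were 1.93 in B10, 2.18 in *mdx* and 1.90 in D2-*mdx*. Thinned to 3000 UMIs, the shares were 0.942%, 1.00%, 0.185% and 0.297%, and the antiviral ratios 2.02 in *mdx* and 2.58 in DBA. Satellite-led cells thinned alike gave 0.949%, 0.992%, 0.0771% and 0.117%.

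With satellite-led cells only, the shares were 0.147% in DBA and 0.623% in D2-*mdx* (log2 ratio 2.08), 78 genes were at least 2-fold higher in all 4 libraries in place of 198, and the antiviral ratios were 1.98 in *mdx* and 1.77 in DBA, and 1.75 in D2-*mdx*. The median log2 ratio of pericyte markers turned to -0.13 in B10 and -0.23 in DBA. Without predicted doublets in this class, the shares were 0.151% and 0.614% (log2 ratio 2.03), 70 genes were higher, the antiviral ratios were 1.77 in DBA and 1.74 in D2-*mdx*, and the pericyte medians -0.15 and -0.22. With under 3 glial UMIs, the shares were 1.76% in *mdx* and 0.112% in DBA, and 0.584% in D2-*mdx* (log2 ratio of D2-*mdx* over DBA 2.38), 49 genes were higher, the antiviral ratios were 1.51, 2.00, 1.91 and 1.75, and the pericyte medians were -0.28 in B10 and -0.13 in DBA. With at least 2 UMIs of *Pax7* and *Myf5*, the DBA share was 0.320%.

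A minimum of 50 CPM left 63 genes higher in all 4 libraries, fewer genes being tested. A minimum of 10 CPM in the other cells alone left 74, and the median log2 ratio of glial markers in *mdx* then turned to -0.61. With the mean of counts per 10000 of each cell, 1 gene was at least 2-fold lower in all 4 libraries in place of 0, and the antiviral ratios were 2.05 in *mdx* and 2.55 in DBA, and 1.95 in D2-*mdx*. TMM library sizes gave 1.52, 1.80, 2.18 and 1.60, and DESeq2 size factors 1.89 in *mdx* and 2.29 in DBA, and 1.74 in D2-*mdx*. Against myogenic cells without a rule gene the ratios were 1.72, 2.11, 2.57 and 2.02, and without predicted doublets that of D2-*mdx* was 2.01. The cause of these shifts was not tested. The antiviral sum was higher in the set in all 4 libraries under each alternative run. Of the values for single lists and genes, 844 moved little, 155 moved by more and 9 changed sign. No paired analysis was possible because each strain is 1 library. DBA values rest on 17 cells of the set and 4 satellite-led cells, which limits every comparison with DBA.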
